A study of Mus musculus with 102 samples.

Results

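The retrosplenial cortex (RS) of the adult mouse was compared with the motor (Cx motor) and cingulate (Cx cingulate) areas of the cerebral cortex, on the 2 arrays of each region, which make 6 of the 102 arrays of the series. All mice were male Balb/c animals aged 7 to 8 weeks, and the 3 groups carried no treatment and differed in the region punched. The mice had been kept in a cycle of 12 h light and 12 h darkness and were sampled in light and dark cycles or in constant darkness at 6 time points 4 h apart. Each array holds RNA pooled over these times from many mice, taken with a needle of 0.5 mm from frozen slices, so it averages over the day, over animals and over all layers and cell types in the punch. The arrays carry probe sets, groups of short probes for 1 transcript, and an expression value is the log2 signal of a probe set after normalization by RMA (robust multi-array average). A difference of 1 on this scale is a 2-fold change. Every probe set other than the controls was compared, 45,037 in all, of which 34,945 name 1 gene and together cover 18,193 genes.

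The retrosplenial cortex lies behind the cingulate cortex on the medial wall of the hemisphere, between the hippocampal formation and the anterior thalamus, and is known for its part in spatial memory and navigation. The rodent granular retrosplenial area has a dense sheet of small pyramidal cells in its superficial layers, and a class of excitatory neurons found there differs in its transcripts from the upper-layer neurons of other cortex. Motor cortex is known for its thin layer 4 and large layer 5 output neurons, and cingulate cortex for its links with the limbic system.

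All 3 regions carried the transcripts of cortical excitatory neurons. *Slc17a7*, the vesicular glutamate transporter of cortical neurons, was at 10.66 and 10.68 in RS, 10.54 and 11.05 in Cx motor and 10.13 and 10.81 in Cx cingulate. Of the 6 such genes measured (*Slc17a7*, *Tbr1*, *Emx1*, *Neurod2*, *Neurod6* and *Camk2a*), only *Camk2a* passed the test in RS. Its call was lost without the second RS array (0 of 6) and after the period adjustment described below, and 2 of 6 passed without the second Cx motor array. RS was nearest to Cx motor (1 minus Pearson's r of the regional means of log2 values, 0.00745) and next to Cx cingulate (0.0106).

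The arrays of RS differ from the others in when they were collected. According to the study's sample table, the mice for RS were sampled on other days than those for Cx motor and Cx cingulate, months apart, while Cx motor and Cx cingulate share their days. Between the other regions sampled in the period of RS (17 regions) and those sampled in the period of Cx motor and Cx cingulate (15 regions) there were differences of their own, and across all 45,037 probe sets these correlated with the differences of RS (Pearson's r = 0.537, a description over probe sets that share arrays, and r = 0.426 when only telencephalic regions, 3 and 5 in number, were used). Of the probe sets called higher in RS, 88.5% were also higher in the other regions of its period, where 54.3% of all probe sets were. No array of Cx motor or Cx cingulate was collected in the period of RS, so that region and period cannot be told apart in these 6 arrays. For this reason the main results below are also given after the difference between periods over the other regions was subtracted in the same fit, and such a value is called period-adjusted. It assumes that the period had the same effect on RS as on the average of these other regions. It also assumes that the 2 sets, which hold different regions, do not differ by region. The subtracted difference, the correlations and the shares above thus contain period and region alike. A call lost or kept after the adjustment does not show a period effect. For *Htr2c* the difference was 0.44 over all other regions and -1.52 over telencephalic ones. For *Slc17a6* it was 1.26 and -0.13.

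In all, 3,877 probe sets differed between RS and the mean of Cx motor and Cx cingulate (8.61% of those tested, limma, adjusted p under 0.05). In RS 1,561 were higher (3.47%) and 2,316 lower (5.14%), and 107 higher (0.238%) and 90 lower (0.2%) ones differed by at least 1. Cx motor was closer to RS than Cx cingulate was, with 1,800 probe sets called (4%) against Cx motor and 4,367 (9.7%) against Cx cingulate, comparisons that share the RS arrays. Against Cx motor 867 were higher (1.93%) and 933 lower (2.07%) in RS, and against Cx cingulate 1,539 were higher (3.42%) and 2,828 lower (6.28%). Both RS arrays lay above all 4 others in 9.81% of all probe sets and below them in 12%. Between Cx motor and Cx cingulate 915 were called (2.03%). In a fit on the 6 arrays alone, which has few degrees of freedom, 524 probe sets passed for RS against the mean, and 1,955 passed after the period adjustment. Without the first RS array 1,449 passed, of which 56.4% were higher, against 40.3% of the calls with all arrays. Against Cx motor 891 passed without the first RS array, 1,090 without the second and 847 without the first Cx motor array, and against Cx cingulate 1,887 passed without the first RS array. Fewer cells of a type and less RNA per cell cannot be told apart in such bulk samples. The 2 RS arrays differed by a median of 0.132 over all probe sets, those of Cx motor by 0.13 and those of Cx cingulate by 0.132. Their correlation over all probe sets was 0.995 in RS, 0.992 in Cx motor and 0.988 in Cx cingulate. Each Cx cingulate array was closer to the Cx motor array of the same number (0.991 and 0.994) than to its own replicate.

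Over the probe sets called higher in RS that name 1 gene, the median difference was 0.46. The genes with the largest differences included a transcription factor, a vesicular glutamate transporter, a serotonin receptor and secreted proteins of the synapse and of Wnt signalling. All 15 genes with the largest differences were higher by 1.49 to 4.72 and passed against each area taken alone, and RS was the highest of the 48 central nervous regions fitted in 4 of them, *Tshz2*, *Baiap2l1*, *Rspo1* and *Fam107a*. After the period adjustment 10 of the 15 still passed, and 8 with telencephalic regions alone. These genes were chosen for the size of their differences.

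*Tshz2* encodes a teashirt zinc finger transcription factor, and the study lists it as a marker of RS on these same arrays, so its values here are not independent of that choice. The probe set with its largest difference was at 8.57 and 8.94 in RS, 4.96 and 5.00 in Cx motor and 5.65 and 4.96 in Cx cingulate. Both RS arrays stood above all 4 others by a wide margin. The difference was 3.61 (standard error 0.17, adjusted p = 3.03e-24), a 12.2-fold higher signal, and 3.25 period-adjusted. The other probe sets of the gene were higher by 2.17 and 2.99. At the last of these Cx cingulate (8.68 and 8.32) was above Cx motor (7.59 and 7.78), a difference of Cx motor minus Cx cingulate of -0.81 (adjusted p = 0.000745). The next highest region after RS at the first probe set was the posterior spinal cord, with a mean of 6.87, against 8.75 in RS.

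*Baiap2l1*, which encodes a protein that links membranes to the actin cytoskeleton, had the smallest standard error of these genes, which is pooled over the 48 regions. It was at 10.41 and 10.70 in RS, 7.98 and 8.15 in Cx motor and 8.18 and 8.14 in Cx cingulate. The difference was 2.44 (standard error 0.11, adjusted p = 2.94e-25) and 2.45 period-adjusted. Only field CA1 of the hippocampus came near RS among the 48 regions, with a mean of 10.43 against 10.56 in RS, and the ventral subiculum followed at 8.45. *Rspo1* encodes R-spondin 1, a secreted protein that raises Wnt signalling. It was at 9.34 and 9.57 in RS, 7.60 and 7.38 in Cx motor and 7.71 and 7.63 in Cx cingulate. The RS arrays did not overlap with the others, and the difference was 1.87 (standard error 0.21, adjusted p = 1.23e-09) and 2.20 period-adjusted. The nearest regions were hypothalamic, with the ventromedial nucleus (VMH) at 9.11 and the dorsal subparaventricular zone (SPa dorsal) at 9.09. *Fam107a*, which encodes an actin-binding protein, was at 9.25 and 9.66 in RS, 7.26 and 7.97 in Cx motor and 7.62 and 7.75 in Cx cingulate. The difference was 1.80 (standard error 0.27, adjusted p = 2.69e-06), 1.09 period-adjusted (adjusted p = 0.0122) and 0.80 by telencephalic regions alone (adjusted p = 0.163), and its other 2 probe sets did not pass (0.35 and 0.32, adjusted p = 0.135 and 0.149).

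*Slc17a6*, which encodes the vesicular glutamate transporter VGLUT2 and is best known from thalamic and other subcortical glutamatergic neurons, was 8.91-fold higher in RS. Its expression value was 10.44 and 10.67 in RS, 7.07 and 7.82 in Cx motor and 7.30 and 7.39 in Cx cingulate, with no overlap. The difference was 3.16 (standard error 0.22, adjusted p = 2.42e-16). The other regions of the RS period were higher by 1.26, and the period-adjusted difference was 1.90 (adjusted p = 2.34e-08). RS stood only 27th of the 48 regions, below the mediodorsal thalamic nucleus (MD) at 12.79. None of the 4 genes of the thalamic list passed, and *Tcf7l2*, a defining transcription factor of the thalamus, was at 7.15 and 7.00 in RS, 7.23 and 7.18 in Cx motor and 7.10 and 7.32 in Cx cingulate. The part of thalamic tissue in the *Slc17a6* values was not tested.

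*Cbln1*, a secreted synapse organiser best known from cerebellar granule cells, and *Htr2c*, a serotonin receptor, also separated RS from both areas. *Cbln1* was at 9.57 and 10.06 in RS, 5.77 and 5.43 in Cx motor and 5.57 and 5.49 in Cx cingulate. The difference was 4.25 (standard error 0.35, adjusted p = 1.53e-13) and 4.43 period-adjusted, and all 3 probe sets of the gene passed. The cerebellar cortex was far higher, with 13.19 in the cerebellar lobe, and RS stood 17th of the 48 regions. *Htr2c* was at 10.74 and 11.26 in RS, 7.30 and 7.94 in Cx motor and 8.21 and 8.49 in Cx cingulate. It differed by 3.01 (standard error 0.28, adjusted p = 4.14e-12), and its other probe set by 2.76. The piriform cortex was the highest region for *Htr2c*, at 11.56.

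**Figure D1:**
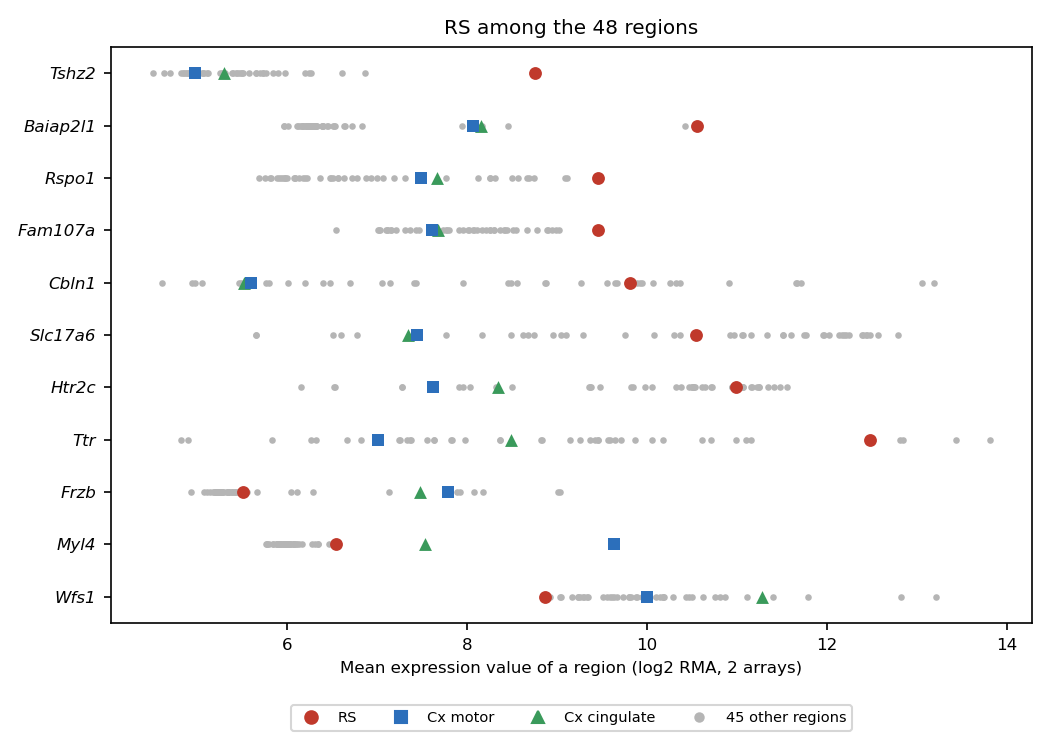
Mean expression value (log2, x axis) of 11 genes (rows) in each of the 48 regions. The red circle is RS, the blue square Cx motor, the green triangle Cx cingulate and the grey dots the other regions. RS is at the right end for Tshz2, Baiap2l1, Rspo1 and Fam107a, within the range of the other regions for Cbln1, Slc17a6, Htr2c and Ttr, and left of both cortical areas for Frzb, Myl4 and Wfs1.

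*Ttr*, which encodes transthyretin, the carrier of thyroid hormone made in bulk by the choroid plexus, had the largest difference of all genes and, of those named, the largest standard error, which is pooled over the 48 regions. It was at 11.78 and 13.18 in RS, 6.40 and 7.63 in Cx motor and 8.86 and 8.12 in Cx cingulate. The difference was 4.72 (standard error 0.92, adjusted p = 0.000251). Period-adjusted it was 4.47 (adjusted p = 0.00163), and 2.95 (adjusted p = 0.113) by the telencephalic regions alone. Fields CA2 and CA3 (13.81), the habenula (13.44), CA1 (12.85) and the cerebellar nucleus (12.82) were above RS. Of the 11 genes of the choroid plexus list, 2 passed, *Ttr* and *Sostdc1*, which was at 6.87 and 7.55 in RS, 6.27 and 6.28 in Cx motor and 6.05 and 6.25 in Cx cingulate. The mean of this list was 7.11 and 7.34 in RS, 6.80 and 6.82 in Cx motor and 6.76 and 6.78 in Cx cingulate. Without the second RS array neither gene of the list passed. The other 9 genes of the list did not pass, among them *Kl* (6.81 and 6.66 in RS), *Folr1* (7.04 and 7.26), *Aqp1* (5.83 and 5.96) and *Otx2* (5.10 and 5.24). Of the 11 genes 9 had a difference above 0. In 5 of the 11 both RS arrays lay above all 4 others, where 9.81% of all probe sets did. The part of choroid plexus in the *Ttr* values was not tested.

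Of the remaining genes of this group, *Nrep* and *Kcnab3* passed after the period adjustment and 5 others did not. *Nrep*, a neuronal protein linked to regeneration, was at 12.31 and 12.62 in RS, 10.51 and 10.71 in Cx motor and 11.37 and 10.97 in Cx cingulate. It differed by 1.57 (standard error 0.14, adjusted p = 6.28e-13) and 1.40 period-adjusted. *Kcnab3*, an auxiliary subunit of voltage-gated potassium channels, was at 9.14 and 9.28 in RS, 7.71 and 8.04 in Cx motor and 7.51 and 7.23 in Cx cingulate. It differed by 1.59 (adjusted p = 9.17e-11) and by 0.89 period-adjusted (adjusted p = 0.000236). Both genes passed in each of their 2 probe sets. Period-adjusted, *Hnrnpab*, an RNA-binding protein, no longer passed (1.97 before, 0.94 after, adjusted p = 0.0638), and nor did *Ralgapa1* (1.74 and 0.80), a GTPase-activating subunit, the potassium channel *Kcnma1* (1.72 and 0.84), the nuclear non-coding RNA *Malat1* (1.57 and 0.47) and the zinc finger gene *Zbed6* (1.49 and 0.29). These 5 genes also differed between their own probe sets, with 2 of 7 passing for *Hnrnpab*, 1 of 8 for *Ralgapa1*, 2 of 5 for *Kcnma1*, 1 of 7 for *Malat1* and 1 of 2 for *Zbed6*. *Kcnma1* also varied within regions, at 10.67 and 11.15 in RS, 10.15 and 8.40 in Cx motor and 9.95 and 8.28 in Cx cingulate.

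**Figure D2:**
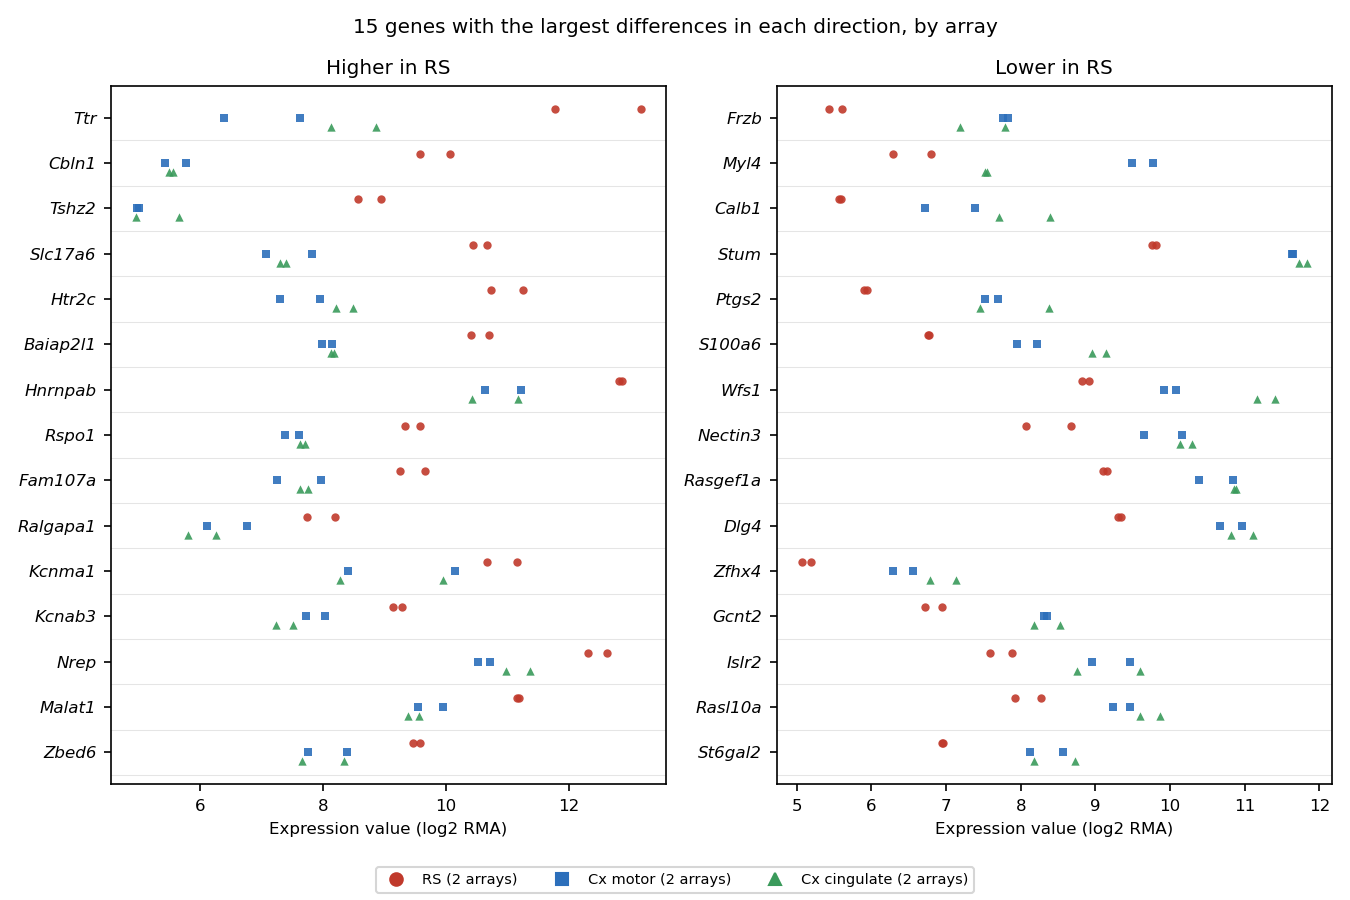
Expression values (log2, x axis) of the 15 genes with the largest differences in each direction (rows), on each of the 6 arrays. Red circles are RS, blue squares Cx motor and green triangles Cx cingulate, 2 arrays each. In every row both RS points lie outside the range of the other 4, which the choice of the genes required. The RS points are far apart for Ttr (11.78 and 13.18) and close together for Calb1 (5.59 and 5.57).

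The genes that were lowest in RS included a Wnt antagonist, calcium-binding proteins, the prostaglandin synthase gene *Ptgs2* and genes of adhesion and of protein glycosylation. The 15 largest differences ran from -2.12 to -1.44, smaller than the largest differences in the other direction. Of them 14 passed against each area alone, *Dlg4* being the exception, 12 passed after the period adjustment and 11 with telencephalic regions alone. RS was the lowest of the 48 regions for none of them. *Frzb*, a secreted frizzled-related protein that binds Wnt ligands, was at 5.43 and 5.60 in RS, 7.76 and 7.83 in Cx motor and 7.18 and 7.79 in Cx cingulate. The RS values were near those of most other regions (median 5.36). The difference was -2.12 (standard error 0.14, adjusted p = 8.49e-17) and -2.59 period-adjusted.

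*Myl4*, a myosin light chain gene, was highest in Cx motor. It was at 6.29 and 6.80 in RS, 9.49 and 9.77 in Cx motor and 7.52 and 7.55 in Cx cingulate. The difference of RS from Cx motor was -3.09 and that from Cx cingulate -0.99 (adjusted p = 1.31e-05), and Cx motor was above Cx cingulate by 2.09 (adjusted p = 1.67e-13). The other probe set of the gene did not pass. RS was still the third highest of the 48 regions for *Myl4*. *Wfs1*, which encodes wolframin, a protein of the endoplasmic reticulum, was at 8.92 and 8.81 in RS, 10.08 and 9.93 in Cx motor and 11.16 and 11.40 in Cx cingulate. Here Cx cingulate was the higher of the areas, and only the medial vestibular nucleus (MVe) of the 48 regions was below RS. The difference from the mean was -1.77 (standard error 0.14, adjusted p = 5.1e-14). *S100a6*, a calcium-binding protein gene, was ordered likewise, at 6.78 and 6.75 in RS, 8.22 and 7.95 in Cx motor and 8.95 and 9.14 in Cx cingulate, a difference of -1.80 (adjusted p = 1.62e-09).

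*Ptgs2*, the inducible prostaglandin synthase cyclooxygenase-2, was at 5.90 and 5.94 in RS, 7.52 and 7.69 in Cx motor and 7.45 and 8.38 in Cx cingulate. The difference was -1.84 (standard error 0.18, adjusted p = 1.99e-11) and -1.85 period-adjusted. *Stum*, named after a fly gene of mechanical sensing, was at 9.76 and 9.81 in RS, 11.64 and 11.65 in Cx motor and 11.72 and 11.83 in Cx cingulate, and differed by -1.92 (adjusted p = 1.4e-13). Neither gene overlapped between RS and the areas, but the Cx cingulate arrays of *Ptgs2* lay far apart. *Nectin3*, a cell adhesion gene of synapses, differed by -1.69 (adjusted p = 1.13e-07), *Gcnt2*, a glycosyltransferase gene, by -1.51 and *Rasl10a*, a small GTPase gene, by -1.44, and these passed after the period adjustment too. *St6gal2*, a sialyltransferase gene (-1.44), and *Zfhx4*, a zinc finger homeobox gene (-1.56), did not pass when adjusted by the telencephalic regions alone (adjusted p = 0.185 and 0.0503). *Islr2*, a membrane protein gene of axon growth, differed by -1.46 and passed in both adjustments.

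For 3 of the genes that were lower, most of the difference was also seen between the other regions of the 2 periods. *Calb1*, which encodes the calcium buffer calbindin and marks upper-layer cells, was at 5.59 and 5.57 in RS, 7.39 and 6.72 in Cx motor and 8.39 and 7.71 in Cx cingulate, a difference of -1.97 (adjusted p = 0.000153). The other regions of the RS period were lower too, by a difference of -1.93, which left -0.04 (adjusted p = 0.982). *Rasgef1a*, an exchange factor gene for Ras-like GTPases, moved likewise (-1.62 before and -0.39 after). With telencephalic regions alone, however, *Rasgef1a* passed (-0.775, adjusted p = 0.0234). *Dlg4*, which encodes the postsynaptic scaffold PSD-95, differed by -1.57 (adjusted p = 0.0211) before and by -0.47 after, and it also lost its call when either RS array, the first Cx motor array or the first Cx cingulate array was left out (adjusted p = 0.0557 to 0.183). One of its 3 probe sets differed by 0.06.

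**Figure D3:**
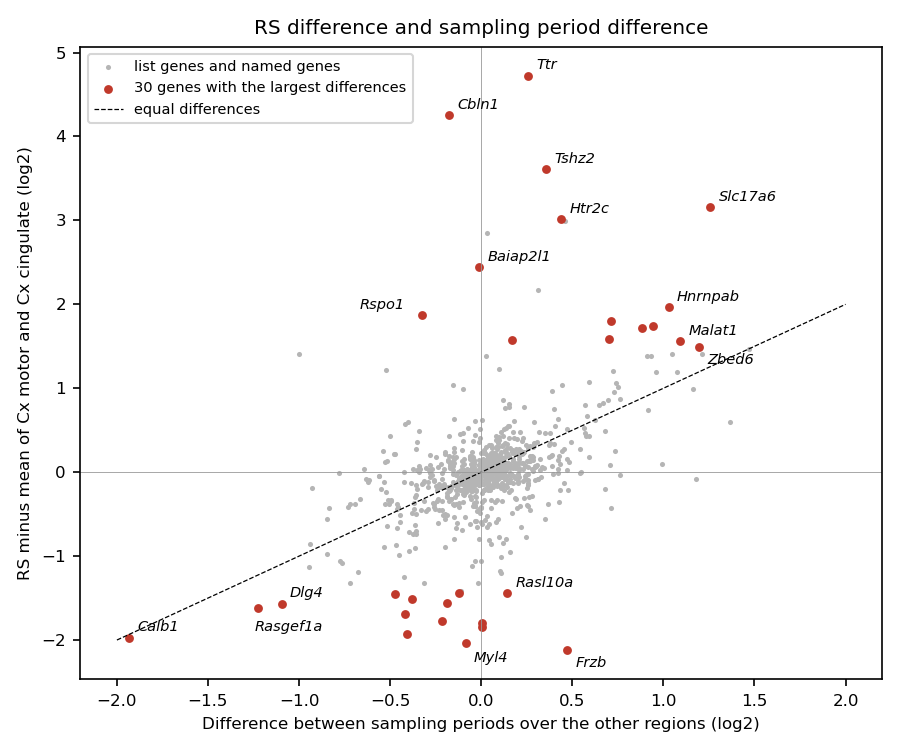
Difference of RS from the mean of Cx motor and Cx cingulate (log2, y axis) against the difference between the other regions of the 2 sampling periods (log2, x axis), for the genes of the lists and the named genes (grey) and the 30 genes with the largest differences (red). The dashed line marks equal differences. Calb1 lies on it, and Tshz2, Cbln1 and Baiap2l1 lie far above it.

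Some genes set RS apart from one area more than from the other. Against Cx motor, the largest differences not named above were in *Grp*, *Rreb1*, *Pnmal2*, *Gpr6* and *C1ql2*, higher in RS, and *Foxp2*, *Inf2*, *Hs3st2*, *Ccn2* and *Col25a1*, lower in RS. Against the mean, the other probe sets of *Pnmal2* (adjusted p = 0.224) and *Col25a1* (adjusted p = 0.952) did not pass. *Pnmal2* did not pass period-adjusted (adjusted p = 0.226). With telencephalic regions alone *Pnmal2*, *Foxp2*, *Col25a1* and *Hs3st2* did not pass (adjusted p = 0.0921 to 0.849). *Rreb1*, *Gpr6*, *Inf2* and *Ccn2* passed in both adjustments. *Grp*, which encodes gastrin-releasing peptide, was at 9.29 and 9.15 in RS, 7.38 and 7.10 in Cx motor and 9.59 and 9.69 in Cx cingulate. RS did not pass against Cx cingulate (difference -0.42, adjusted p = 0.322) and 1.98 above Cx motor (adjusted p = 9.73e-08). *Foxp2*, a transcription factor of layer 6 corticothalamic neurons, was highest in Cx motor among the regions compared, at 5.68 and 5.16 in RS, 6.73 and 7.74 in Cx motor and 5.61 and 5.66 in Cx cingulate. Its difference from Cx motor was -1.81 (adjusted p = 0.000138) and that from Cx cingulate -0.22 (adjusted p = 0.764), and Cx motor was above Cx cingulate by 1.60 (adjusted p = 0.00196). Of the 6 *Foxp2* probe sets 2 passed against the mean of the areas. *C1ql2*, a secreted synapse organiser of the complement family best known from the dentate gyrus, was higher in RS than in both, at 9.37 and 9.17 in RS, 7.90 and 7.76 in Cx motor and 7.94 and 7.96 in Cx cingulate. Its difference from the mean passed period-adjusted (adjusted p = 6.16e-12). With telencephalic regions alone, which count the dentate gyrus in the RS period, it just missed the threshold (adjusted p = 0.0503). *Ccn2*, a matrix-associated growth factor known in cortex for layer 6b, was lower in RS than in both, at 7.06 and 6.75 in RS, 8.44 and 8.48 in Cx motor and 8.05 and 7.95 in Cx cingulate.

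The largest differences from Cx cingulate not named above were in the following genes. *Ermn* and *Mobp*, myelin genes, *Nefh*, the heavy neurofilament subunit, *Vamp1*, a synaptic vesicle SNARE, and the sodium channel *Scn1a* were higher in RS by 1.82 to 2.06. *Nefh* was at 11.08 and 11.18 in RS, 9.92 and 10.31 in Cx motor and 9.35 and 9.06 in Cx cingulate. RS was above Cx cingulate by 1.93 (adjusted p = 8.35e-13) and above Cx motor by 1.01 (adjusted p = 3.33e-05), and the period-adjusted difference from Cx cingulate was 0.45 (adjusted p = 0.128). *Vamp1* was at 9.24 and 9.33 in RS, 8.66 and 8.79 in Cx motor and 7.46 and 7.47 in Cx cingulate. At this probe set it passed against Cx cingulate but not against Cx motor (difference 0.56, adjusted p = 0.125). At its other probe set both RS arrays (11.81 and 12.09) were above Cx motor (11.07 and 11.30) and Cx cingulate (10.29 and 10.16). For *Ermn*, *Nefh*, *Mobp*, *Vamp1* and *Scn1a* Cx motor was also above Cx cingulate, with adjusted p from 7.41e-05 to 0.0368. Lower than in Cx cingulate, among the largest differences not named above, were *Syt17*, a synaptotagmin, *Smoc2*, a secreted matrix protein, the transcription factor *Zic1*, the intermediate filament *Vim* and *Nwd2*. Among the regions compared, *Zic1* and *Vim* were highest in Cx cingulate, *Zic1* at 7.24 and 7.78 in RS, 7.77 and 7.26 in Cx motor and 10.09 and 8.84 in Cx cingulate. The median of the 48 regions for *Zic1* was higher still, at 10.16. *Zic1* did not pass without the first RS array (adjusted p = 0.067) or without the first Cx cingulate array (adjusted p = 0.136).

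The lists of cortical layer genes moved in both directions. The counts that follow use 1 probe set a gene, and over all 18,193 genes 10.5% passed, 3.72% higher and 6.74% lower in RS, with a median difference of -0.02. All 4 genes of a retrosplenial list passed upward, *Tshz2*, *Slc17a6*, *Scnn1a*, a sodium channel subunit used as a layer 4 marker in mice, and *Cxcl14*, a chemokine. The list was written with knowledge of RS and holds the study's own marker, so that count is not independent evidence. All 4 passed period-adjusted, and 2 did in the fit on the 6 arrays. *Scnn1a* was at 9.14 and 8.40 in RS, 7.99 and 8.17 in Cx motor and 7.88 and 7.98 in Cx cingulate, and RS was the highest of the 48 regions. *Cxcl14* was at 10.41 and 10.63 in RS, 9.82 and 9.83 in Cx motor and 9.88 and 10.09 in Cx cingulate. Of 6 layer 4 genes 2 passed, both upward, *Rspo1* and *Scnn1a*, with 1 passing without the first RS array, while *Rorb*, a layer 4 transcription factor, was at 8.65 and 8.73 in RS, 8.73 and 8.60 in Cx motor and 9.35 and 8.14 in Cx cingulate.

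Of 11 upper-layer genes 4 passed, all downward (median of the list -0.13). *Stard8*, a GTPase-activating protein gene, was at 8.04 and 8.12 in RS, 8.73 and 8.79 in Cx motor and 9.01 and 9.15 in Cx cingulate, a difference of -0.84 (adjusted p = 1.71e-07). *Otof*, a calcium sensor of vesicle release, differed by -0.43 (adjusted p = 0.00777) and *Rasgrf2*, a Ras exchange factor, by -0.43 (adjusted p = 0.0409), and *Calb1* by -1.06 at the probe set used here. *Cux1* (difference 0.11) and *Cux2* (-0.04), homeobox factors used as upper-layer markers, did not pass. The count was 2 without the first RS array, without the second RS array or without the second Cx cingulate array.

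Deep-layer genes showed no common direction. Of 14 layer 5 genes 2 were higher, *Parm1* and *Bcl6*, and 2 lower, *Crym* and *Pcp4*. *Parm1*, a mucin-like membrane protein gene, was at 11.07 and 11.38 in RS, 9.71 and 10.18 in Cx motor and 9.98 and 10.12 in Cx cingulate, and the suprachiasmatic nucleus (SCN) alone was above RS among the 48 regions. The difference of *Parm1* was 1.23 (adjusted p = 2.04e-08), and that of *Bcl6*, a transcriptional repressor, was 0.61 (adjusted p = 1.71e-06). *Pcp4*, a calmodulin-binding peptide gene of corticospinal layer 5 cells, was at 11.61 and 11.56 in RS, 12.52 and 12.78 in Cx motor and 11.68 and 11.62 in Cx cingulate, so RS was near Cx cingulate, and it did not pass period-adjusted (adjusted p = 0.122). *Crym*, a thyroid hormone binding protein gene, differed by -1.09 and did not pass after the period adjustment (adjusted p = 0.55). With telencephalic regions alone *Crym* (adjusted p = 2.33e-05) and *Pcp4* (adjusted p = 0.000133) passed, and *Bcl6* did not (adjusted p = 0.238). Of 14 genes of layers 6 and 6b, *Nr4a2*, *Zfpm2* and *Ntsr1* were higher and *Ccn2* and *Foxp2* lower. *Nr4a2*, a nuclear receptor of layer 6 and the claustrum, was at 10.21 and 10.05 in RS, 9.21 and 9.10 in Cx motor and 9.17 and 8.89 in Cx cingulate, a difference of 1.04 (adjusted p = 4.06e-05) that passed period-adjusted too (adjusted p = 1.08e-05). The count for layers 6 and 6b was 3 instead of 5 without the second RS array or without the second Cx cingulate array.

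Of 30 cortical transcription factors 3 were higher (*Tshz2*, *Rora* and *Pbx3*) and 3 lower (*Meis2*, *Lmo3* and *Lmo4*). *Rora*, an orphan nuclear receptor, was at 10.68 and 10.98 in RS, 9.70 and 10.05 in Cx motor and 9.41 and 9.93 in Cx cingulate, but did not pass period-adjusted (adjusted p = 0.514). *Meis2*, a homeobox cofactor, was at 9.53 and 9.65 in RS, 10.12 and 9.71 in Cx motor and 10.94 and 10.67 in Cx cingulate, and passed period-adjusted (adjusted p = 4.17e-05) but not with telencephalic regions alone (0.51, adjusted p = 0.133). *Lmo3* was at 9.39 and 9.23 in RS, 9.97 and 10.39 in Cx motor and 9.44 and 9.51 in Cx cingulate, so its low level was shared with Cx cingulate. This count was 2 without the first RS array, 3 without the second and 10 without the second Cx motor array. Genes of the hippocampus and subiculum, next to which RS lies, passed in 4 of 14 cases, *C1ql2*, *Prox1* and *Pou3f1* upward and *Wfs1* downward. *Prox1*, the transcription factor of dentate granule cells, was at 6.56 and 6.50 in RS, 6.20 and 5.85 in Cx motor and 6.22 and 5.73 in Cx cingulate, and did not pass period-adjusted (-0.04, adjusted p = 0.949), its difference turning to -0.61 (adjusted p = 0.0117) with telencephalic regions alone. *Dsp*, another dentate gene, was at 5.42 and 5.14 in RS, 5.39 and 5.08 in Cx motor and 5.45 and 5.44 in Cx cingulate. The median of the list was 0.08, and -0.04 without the first RS array. Adjusted by telencephalic regions alone 1 of these 14 genes was higher and 8 were lower. The dentate gyrus is, however, 1 of the 3 telencephalic regions of the RS period. Its own expression is thus subtracted (telencephalic difference 1.14 for *Prox1* and 1.55 for *Dsp*), and the 8 cannot be read as a trait of RS.

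**Figure D4:**
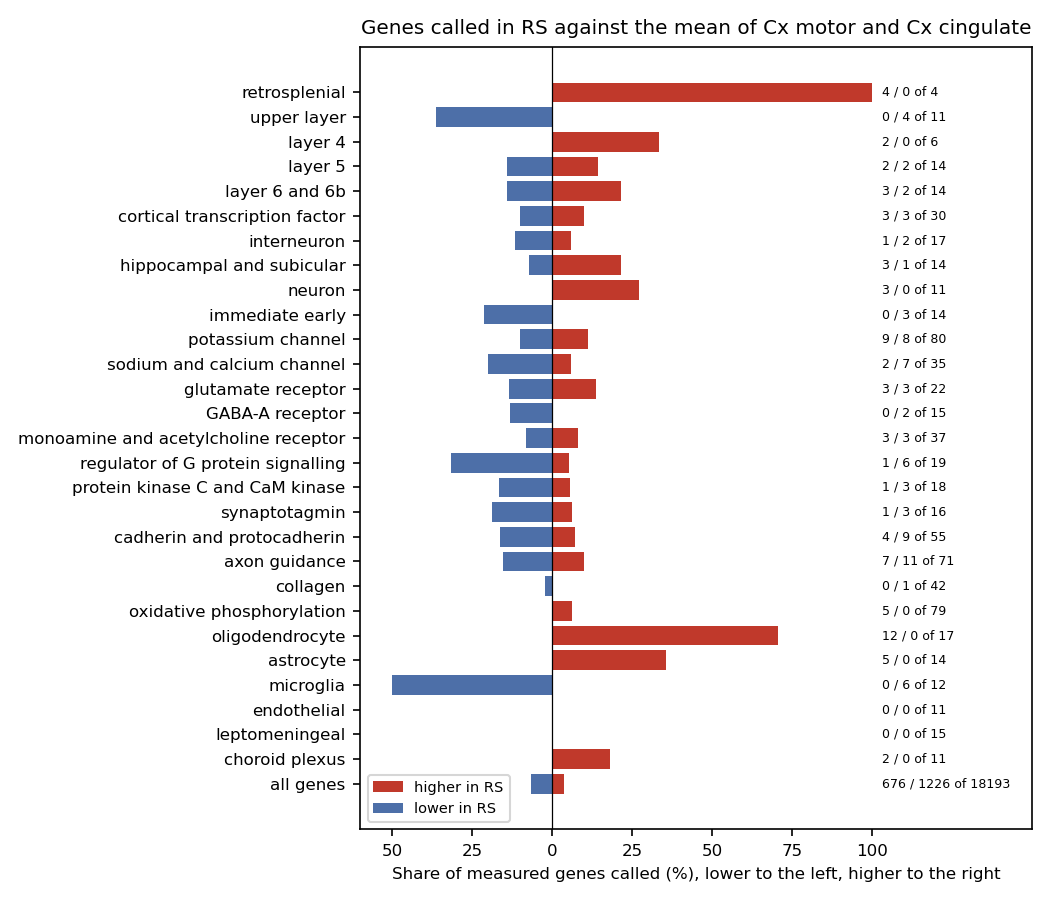
Share of the measured genes of each list (rows) that passed in RS against the mean of Cx motor and Cx cingulate (%, x axis), lower in RS to the left in blue and higher in RS to the right in red, with the counts higher / lower of measured. All genes are the bottom row. The oligodendrocyte list reaches 70.6% (12 of 17) higher and the microglia list has 6 of 12 lower, against 10.5% of all genes in either direction.

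Among genes of inhibitory neurons, 1 of 17 was higher and 2 were lower. *Pvalb*, the calcium buffer of fast-spiking interneurons, was at 11.59 and 11.77 in RS, 10.77 and 11.01 in Cx motor and 10.22 and 9.95 in Cx cingulate. It differed by 1.19 (adjusted p = 2.34e-06), as did the other regions of the RS period by 0.96, and it did not pass period-adjusted (adjusted p = 0.636). *Npy*, the neuropeptide Y gene, was at 10.02 and 10.36 in RS, 10.95 and 10.83 in Cx motor and 10.73 and 10.93 in Cx cingulate, and *Nos1*, the neuronal nitric oxide synthase, differed by -0.37 (adjusted p = 0.00799). *Gad1*, *Gad2*, *Sst* and *Vip*, which make GABA or mark other interneuron classes, did not pass. Period-adjusted, *Gad1* (0.93, adjusted p = 0.00655) and the transcription factor *Dlx1* (0.77, adjusted p = 0.00243) were higher and *Npy* did not pass (adjusted p = 0.0719). With telencephalic regions alone 4 genes of the list were higher and 2 lower. The count for this list was 5 without the first Cx cingulate array.

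Myelin genes were higher in RS, mainly by comparison with Cx cingulate. Of 17 oligodendrocyte genes 12 passed upward and none downward (median 0.62). Against Cx motor 1 passed, upward (median 0.34), where 4.84% of all genes passed and 2.28% were higher. Against Cx cingulate 16 passed, all upward (median 0.97), where 11.8% of all genes passed and 3.45% were higher. Cx motor was itself above Cx cingulate in 11 of the 17. *Mag*, a myelin-associated glycoprotein gene, was at 9.98 and 9.89 in RS, 9.37 and 9.76 in Cx motor and 8.77 and 8.57 in Cx cingulate. The mean of the list was 9.92 and 9.88 in RS, 9.47 and 9.70 in Cx motor and 9.12 and 8.70 in Cx cingulate. After the period adjustment 0 of 17 passed (median 0.16), or 1 when telencephalic regions alone were used. Whether this came from the period or from the regions subtracted was not tested. In the fit on the 6 arrays 4 passed.

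**Figure D5:**
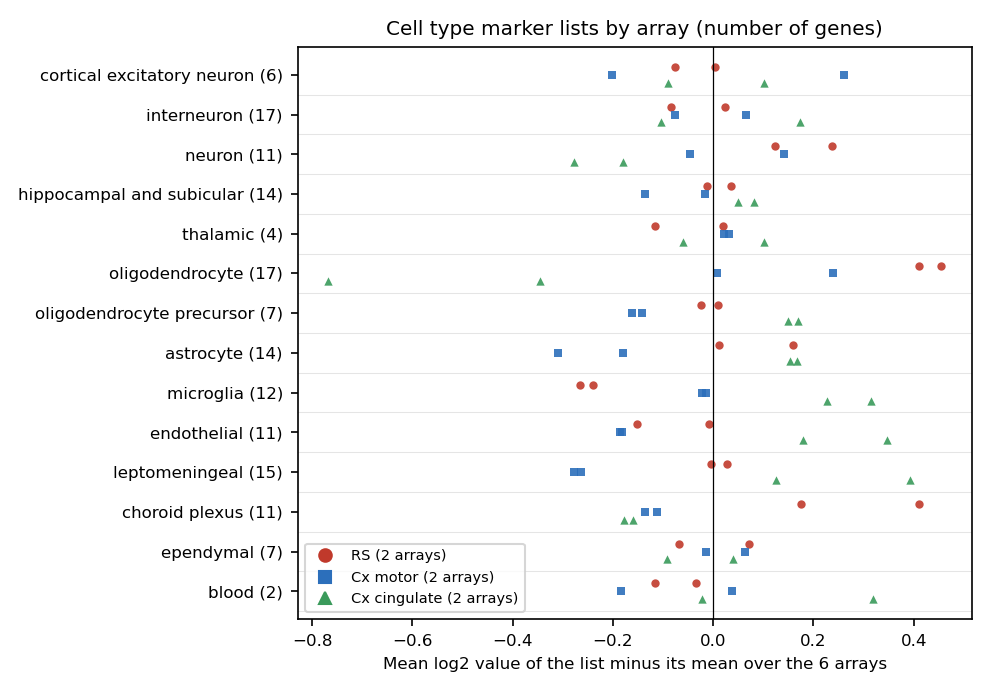
Mean log2 value of each marker list on each array, less its mean over the 6 arrays (x axis), with the number of genes in brackets (rows). Red circles are RS, blue squares Cx motor and green triangles Cx cingulate. Oligodendrocyte genes are highest and microglia genes lowest on both RS arrays, and the choroid plexus list is highest there.

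Microglia genes were lower in RS. Of 12 genes 6 passed, all downward, and all 12 differences were below 0 (median -0.39). Against Cx motor 1 was lower (median -0.23) and against Cx cingulate 7 were (median -0.56). *P2ry12*, a purinergic receptor of resting microglia, was at 8.34 and 8.38 in RS, 8.85 and 8.84 in Cx motor and 8.90 and 9.32 in Cx cingulate (difference -0.62, adjusted p = 0.000661). *C1qa*, a complement gene, was at 9.43 and 9.60 in RS, 9.80 and 10.12 in Cx motor and 10.24 and 10.51 in Cx cingulate (difference -0.65, adjusted p = 0.000473). *Aif1*, *C1qc*, *Tyrobp* and *Ctss* passed as well, while *Csf1r* and *Cx3cr1* did not. After the period adjustment 7 of 12 were called lower, and 11 of 12 with telencephalic regions alone, with 0 called higher in either. The telencephalic regions of the RS period were themselves higher than those of the other period for all these genes but *Fcrls* (-0.09), as for *Ctss* (0.59) and *C1qa* (0.39). That difference is subtracted, so the 11 cannot be read as a stronger result for RS. The count was 2 without the first RS array and 0 in the fit on the 6 arrays.

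Of 14 astrocyte genes 5 passed upward (median 0.18), *Agt*, *Fgfr3*, *Ntsr2*, *Gja1* and *Aldoc*, with differences of 0.26 to 0.46. Against Cx motor 6 were higher (median 0.31), and against Cx cingulate 0 were higher and 2 lower (median 0.01). *Gfap*, the astrocyte filament gene, was at 9.06 and 9.13 in RS, 8.50 and 8.36 in Cx motor and 9.71 and 9.98 in Cx cingulate, so RS lay between the areas. The astrocyte count was 0 without the second RS array, 2 without the first RS array or the first Cx cingulate array, 3 without the second Cx motor array, and 2, 1 in each direction, after the period adjustment. With telencephalic regions alone 0 were higher and 3 lower (median -0.15). None of 11 endothelial, 15 leptomeningeal, 7 ependymal and 2 blood genes passed against the mean of the areas, though 1 endothelial gene was lower without the second RS array and 7 leptomeningeal genes were lower when adjusted by telencephalic regions alone.

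Of 11 markers of neurons in general, *Nefh*, *Nefm* and *Rbfox3* were higher (27.3%, where 3.72% of all genes were) and 0 lower. The median difference of the list was 0.08. *Nefm*, the medium neurofilament subunit, was at 11.72 and 11.82 in RS, 11.02 and 11.47 in Cx motor and 10.34 and 10.31 in Cx cingulate. *Nefm* was also higher in the other regions of the RS period (by 1.16), and neither it (adjusted p = 0.69) nor *Nefh* (adjusted p = 0.997) passed period-adjusted. *Rbfox3*, the gene of the nuclear antigen NeuN, differed by 0.31 (adjusted p = 0.008) and did not pass period-adjusted either (adjusted p = 0.124), where the list had 0 higher and 2 lower genes. With telencephalic regions alone *Nefh* passed (adjusted p = 0.00453) and the other 2 did not. Immediate early genes, which neuronal activity induces, passed in 3 of 14 cases, all lower (median -0.25). *Egr2* was at 6.45 and 6.30 in RS, 7.45 and 7.49 in Cx motor and 7.56 and 8.01 in Cx cingulate, a difference of -1.25 (adjusted p = 1.26e-06), and it passed period-adjusted (adjusted p = 0.00347) but not with telencephalic regions alone (-0.38, adjusted p = 0.43), where 1 gene of the list was higher and 0 lower. *Junb* was at 7.70 and 7.70 in RS, 8.78 and 8.67 in Cx motor and 9.34 and 8.78 in Cx cingulate (difference -1.19) and *Egr4* differed by -0.50, and these did not pass period-adjusted (adjusted p = 0.0589 and 0.695). *Fos*, *Arc* and *Npas4* did not pass, and *Arc* varied within Cx motor and Cx cingulate, being at 9.89 and 9.86 in RS, 10.13 and 11.22 in Cx motor and 9.37 and 10.40 in Cx cingulate.

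Ion channel genes passed in both directions. Of 80 potassium channel genes 9 were higher and 8 lower (median 0.01), and of 35 sodium and calcium channel genes 2 were higher and 7 lower (median -0.10). Higher were the beta subunits *Kcnab3* (1.08) and *Kcnab1* (0.81), the background channel family gene *Kcnk12* (0.77), *Kcna1* (0.63) and *Kcns1*, a silent subunit that modifies other channels. *Kcns1* was at 8.24 and 8.44 in RS, 7.59 and 8.04 in Cx motor and 7.59 and 7.65 in Cx cingulate, and *Kcnn1*, a small-conductance calcium-activated channel, was at 8.12 and 8.32 in RS, 7.97 and 7.80 in Cx motor and 7.66 and 7.79 in Cx cingulate. RS was the highest of the 48 regions for both, but *Kcnn1* did not pass period-adjusted (adjusted p = 0.472). Lower were *Kcnt2* (-0.81), *Kcnip2* (-0.74), *Kcnj4* (-0.73), *Kcnh1* (-0.71) and others. Of the sodium channels *Scn1a* was higher (0.86), while *Scn3a* (-0.90) and the auxiliary *Scn3b* (-0.80) were lower. *Scn3b* was at 9.60 and 9.64 in RS, 10.16 and 10.11 in Cx motor and 10.52 and 10.90 in Cx cingulate, and passed period-adjusted. Of the calcium channels *Cacna1g*, which carries T-type current, was at 9.41 and 9.35 in RS, 9.95 and 10.03 in Cx motor and 10.19 and 10.27 in Cx cingulate, and did not pass period-adjusted (adjusted p = 0.143). The potassium channel count was 9 instead of 17 without the first RS array and 10 without the second, and after the period adjustment 13 potassium but 1 sodium or calcium channel passed. Of the genes named, *Kcna1*, *Kcnip2*, *Kcnj4*, *Kcnh1*, *Scn1a* and *Scn3a* lost their calls under it (adjusted p = 0.0807 to 0.64), and *Kcnip2*, *Kcnj4* and *Kcnh1* passed with telencephalic regions alone, where *Kcnt2* did not (adjusted p = 0.156).

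Receptor genes were also split. *Htr2c*, *Htr7* (0.55), another serotonin receptor, and *Chrnb2* (0.30), a nicotinic subunit, were the 3 of 37 monoamine and acetylcholine receptors that were higher, and *Chrm3* (-0.61), *Adra1b* (-0.59) and *Adra2c* (-0.31) were lower. Of 22 glutamate receptor genes, *Grik1*, *Grm4* and *Grid1* were higher and *Grik5*, *Gria1* and *Grik2* lower. *Grik1*, a kainate receptor subunit, was at 7.40 and 7.45 in RS, 6.39 and 6.48 in Cx motor and 6.80 and 6.61 in Cx cingulate, a difference of 0.86 (adjusted p = 1.96e-05), whereas its partner subunit *Grik5* was at 9.80 and 9.86 in RS, 10.39 and 10.61 in Cx motor and 10.29 and 10.80 in Cx cingulate. Of 15 GABA-A receptor genes 2 were lower. *Gabra3* was at 9.15 and 9.42 in RS, 10.14 and 10.58 in Cx motor and 10.18 and 10.49 in Cx cingulate, a difference of -1.06 (adjusted p = 8.04e-07) that passed period-adjusted (adjusted p = 3.02e-06) but not with telencephalic regions alone (adjusted p = 0.661), while *Gabra2* (-0.65) did not pass it (adjusted p = 0.763). Of the receptors named, *Chrnb2*, *Adra2c*, *Grid1*, *Gria1* and *Grik2* did not pass period-adjusted (adjusted p = 0.106 to 0.822). Without the first RS array 2 of the 37 and 2 of the 22 passed, and 1 of the 15.

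Most of the intracellular signalling genes that passed were lower, as were most of all genes that passed (6.74% of all genes lower and 3.72% higher). Of 19 Rgs genes, which shorten G protein signals, *Rgs17* was higher (0.80) and 6 were lower. *Rgs8* was at 8.67 and 8.67 in RS, 9.54 and 9.34 in Cx motor and 10.02 and 10.01 in Cx cingulate, a difference of -1.06 (adjusted p = 2e-07), and *Rgs6* differed by -0.66. Both passed period-adjusted. Of 18 protein kinase C and CaM kinase genes *Camk2n2* (0.60) was higher and *Camk2a* (-0.86), *Camk1* (-0.62) and *Camk1g* (-0.30) lower. *Camk2a*, the kinase subunit of excitatory synapses, was at 12.74 and 12.59 in RS, 13.37 and 13.30 in Cx motor and 13.72 and 13.71 in Cx cingulate, with the other regions of the RS period lower by a like amount (-0.94). Of 16 synaptotagmins *Syt2*, the calcium sensor of fast synapses, was higher (1.41) and *Syt17*, *Syt5* and *Syt12* were lower. *Syt2* was at 9.42 and 9.18 in RS, 7.87 and 8.34 in Cx motor and 7.77 and 7.58 in Cx cingulate but did not pass period-adjusted (adjusted p = 0.785). The Rgs count was 4 instead of 7, and the synaptotagmin count 2 instead of 4, without the first RS array. After the period adjustment 3 Rgs genes passed, all lower and without *Rgs17* (adjusted p = 0.409), 1 of the kinase genes and 2 synaptotagmins.

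Cell adhesion and axon guidance genes, which lay down area-specific wiring, passed in 13 of 55 and 18 of 71 cases. Of the cadherins and protocadherins 4 were higher and 9 lower. *Pcdhb3* was at 8.40 and 8.95 in RS, 7.70 and 7.66 in Cx motor and 7.80 and 7.66 in Cx cingulate, a difference of 0.97 (adjusted p = 4.09e-07), and RS was second to CA1. *Cdh9* was at 7.35 and 6.98 in RS, 8.09 and 8.80 in Cx motor and 7.59 and 7.78 in Cx cingulate (difference -0.90). *Cdh9* did not pass period-adjusted (adjusted p = 0.352), and *Pcdhb3* did (adjusted p = 0.00532), though not with telencephalic regions alone (adjusted p = 0.089). Among guidance genes 7 were higher, among them the netrin G gene *Ntng1* (0.52) and *Robo3* (0.51), a receptor of the Slit system. *Robo3* was at 7.42 and 7.32 in RS, 7.13 and 7.32 in Cx motor and 6.48 and 6.52 in Cx cingulate. The 11 lower ones included *Plxna2* (-0.86), *Epha3* (-0.85), *Ephb6* (-0.80), *Sema3a* (-0.78) and *Sema4a* (-0.60). *Ephb6*, an ephrin receptor gene, was at 9.15 and 9.07 in RS, 9.93 and 10.04 in Cx motor and 9.86 and 9.80 in Cx cingulate. It and *Sema3a*, a secreted repellent, passed period-adjusted, *Ephb6* however not with telencephalic regions alone (adjusted p = 0.925). Without the first RS array 3 adhesion and 9 guidance genes passed, and without the second 6 adhesion genes did. After the period adjustment 2 adhesion genes passed, 1 in each direction.

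The other groups passed in small numbers. Of 79 genes of oxidative phosphorylation 5 passed, all higher, with differences of 0.23 (*Uqcrc1*) to 0.53 (*Cox6a2*), and 1 to 3 passed when any one of the 6 arrays was left out, with 2 passing without the second RS array, both lower. Of 42 collagen genes only *Col6a1* passed (-0.59), and of 37 Wnt and frizzled genes *Wnt4* (-0.94) and *Fzd3* (-0.35) did, both lower. The collagen count was 0 without the second RS array or the second Cx cingulate array and 2 without the second Cx motor array, and the Wnt count was 4 without the second RS array or the second Cx cingulate array. *Hapln4*, a link protein of perineuronal nets, was higher by 0.67 and *Ncan* (-1.13) and *Tnr* (-0.54), proteoglycan and tenascin genes of the same matrix, were lower, and none of these 9 matrix genes passed period-adjusted. Among neuropeptides *Chgb* (0.48) and *Grp* (0.78) were higher and *Tac1* (-0.89) and *Npy* (-0.67) lower, and none of these 4 passed period-adjusted (adjusted p = 0.0719 to 0.212), while *Grp* did with telencephalic regions alone (adjusted p = 0.00142). *Tac1*, the substance P precursor, was at 8.59 and 8.65 in RS, 9.46 and 9.84 in Cx motor and 9.28 and 9.47 in Cx cingulate. Without the first RS array 1 of the matrix genes and 1 of the 23 neuropeptide genes passed, and without the second 2 of the neuropeptide genes did.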

How the data were processed

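Punches of RS, Cx motor and Cx cingulate were hybridised to Affymetrix mouse expression arrays, 2 per region, the second being a repeat of the whole procedure. The labels do not say more of how far the repeats are independent, so p-values measure the spread between them. The deposited log2 values were made by the authors with RMA over the arrays, and the version is not given in the sources used here. Arrays carry no counts, so the number of arrays limits the precision, and array medians ran from 7.36 to 7.40. The values were used as deposited. Control probe sets were left out, as were 932 probe sets that name several genes and 9,160 without a gene where genes are named.

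A linear model with 1 mean per region was fitted to 96 arrays of 48 regions with limma 3.58.1 in R 4.3.3 (lmFit and eBayes, two-sided, Benjamini-Hochberg adjustment over all 45,037 probe sets, 48 residual degrees of freedom). Retina, pituitary and pineal gland were left out. The spread is thus pooled over regions. The alternatives were a fit on the 6 arrays, a replicate block, the sampling day as a random block, cyclic loess, a filter on dim probe sets (kept with a mean of 7 or more in at least 1 of the 3 regions), a trended and robust prior, and leaving out each array. The period adjustments were added after the data were seen. The telencephalic regions of the RS period were the olfactory tubercle, dentate gyrus and globus pallidus. Those of the other period were the lateral septum, the anterior and posterior amygdala and the lateral and medial caudate putamen. For a single value, 2 arrays against 4 cannot give an exact permutation p below 0.133, a bound that takes the 6 arrays as exchangeable. Data of 8,000 probe sets were simulated for RS against the mean of the areas. In them 32% of differences of 0.3, 78% of 0.5 and 98% of 1 were recovered, with 9 false calls. The simulation gave each array independent noise around equal region means. It held no sampling period and no deviation shared by Cx motor and Cx cingulate arrays, so its false calls do not bound those in the data.

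Named are the 15 genes with the largest difference in each direction that passed with both RS arrays beyond all 4 others, the 5 next largest against each area, and members of the gene lists. Lists use the probe set of each gene with the highest mean over the 96 arrays. The members and lists were chosen with earlier results of these data known. Figures were drawn with matplotlib 3.10.9.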

Additional observations from a re-analysis of the deposited data

Results flagged for a closer look

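For 4 of the 30 genes with the largest differences between RS and the mean of the 2 areas, Cx motor and Cx cingulate themselves differed, so that the contrast of RS was unequal for the areas (limma on the difference, adjusted p over all probe sets). *Myl4* had the largest such difference, with Cx motor above Cx cingulate by 2.09 (adjusted p = 1.67e-13). *Wfs1* differed between Cx motor and Cx cingulate by -1.28 (adjusted p = 5.57e-07), and the difference of RS was -1.13 from Cx motor and -2.42 from Cx cingulate. *S100a6* differed between the areas by -0.96 (adjusted p = 0.0109), with RS at -1.32 from Cx motor and -2.28 from Cx cingulate. *Nrep* differed by -0.56 (adjusted p = 0.043), with RS above Cx motor by 1.85 and above Cx cingulate by 1.29.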

How the results depend on the processing

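The counts of probe sets called were 3,877 for RS against the mean of the areas, 1,800 against Cx motor, 4,367 against Cx cingulate and 915 for Cx motor against Cx cingulate. In the fit on the 6 arrays they were 524, 91, 705 and 20, with 15 instead of 86 probe sets of RS as the highest region and 49 instead of 171 of 807 list genes called. Over the fits without 1 array they ran from 1,449 to 3,924, from 847 to 1,901, from 1,887 to 4,462 and from 531 to 1,191, the highest-region count from 74 to 199 and the list genes from 94 to 158. After the period adjustment 1,955 probe sets were called against the mean and 2,187 against Cx cingulate, with 40 for RS as the highest region and 104 list genes, and with telencephalic regions alone 2,242, 2,551 and 44. Same-numbered arrays of RS did not deviate together with those of Cx motor (correlation -0.021) or Cx cingulate (-0.05). Those of Cx motor and Cx cingulate did (0.528), and they share their sampling days. The numbers were not taken to pair the samples, and the fit treats these 4 arrays as independent. Standard errors and p-values of RS against their mean may thus be too small. The sampling-day block used a common correlation for all regions (0.0608). With the replicate block 3,902, 1,796, 4,395 and 921 probe sets were called, and no call of the 52 named probe sets changed. Nor did any change with the sampling day as a random block, cyclic loess or a trended prior, and 50 of the 52 were retained by the filter on dim probe sets, with no call changed. Cyclic loess called 46.5% of its probe sets higher, against 40.3%. The 6-array fit lost 10 named calls, the period adjustment 10 and that by telencephalic regions 15, and with the last the difference of *Malat1* turned to -0.40 (adjusted p = 0.739). The cause of these losses was not tested. In the simulation, with 2 arrays a region, differences of 0.3 were mostly not recovered.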
